A study of Sus scrofa with 189 samples.

Results

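Immediate early genes are the genes that a cell switches on within minutes of a stimulus, before any new protein has been made. Their products are mostly transcription factors, and their messages are short-lived, so that a level in tissue reflects the recent past. In skeletal muscle they are known to respond to contraction, stretch, adrenaline, injury and loss of oxygen. FOS and FOSB pair with JUN, JUNB or JUND to form the transcription factor AP-1, ATF3 belongs to the related ATF and CREB family, EGR1 is a zinc finger factor, NR4A1 is an orphan nuclear receptor and IER2 is a small nuclear protein of the same early wave.

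The 9 genes FOS, FOSB, JUN, JUNB, JUND, EGR1, ATF3, IER2 and NR4A1 were looked up by symbol among the 12651 genes of the deposited table, and the values of all transcripts of a gene were added. FOS, FOSB, EGR1, ATF3, IER2 and NR4A1, 6 of the 9, carry their symbol there. JUN was found by its gene identifier, ENSSSCG00000031912. JUND was taken from an unnamed gene, ENSSSCG00000031657, whose only transcript (chr2:59531154-59532196, plus strand) lies wholly within the RefSeq interval of JUND on the same build, Sscrofa11.1 (chr2:59530991-59532846). The name JUND therefore rests on position alone. JUNB matched no row by symbol or identifier and was not analysed here. A match by position was made for JUND alone. The 8 genes described all passed the filter of a mean of at least 0.5 FPKM, as did 10717 genes in all.

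The samples were longissimus dorsi, the long muscle of the back, of 189 pigs of a first-generation cross of Duroc boars with sows of the Chinese Luchuan breed, which shared farm, diet and abattoir. They were slaughtered at an age of 210 days, give or take 6, and muscle was taken 25 minutes after death, so that every library is of post-mortem tissue and the set holds no sample of living or rested muscle as a control. The pigs received no treatment. Intramuscular fat content (IMF) is the only recorded trait, its unit is not stated, and it sorts the animals into 3 sets: 143 with IMF and an unmarked title, 25 unmarked without IMF, and 21 with IMF whose title carries the unexplained mark "re-analyzed". Libraries are named here by the sample number in their description. The labels name 8 Duroc boars, so that many of the 189 pigs share a sire, but the parentage of single animals is not given. The p-values take the 189 pigs to be unrelated, and the shared parents would make them too small.

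Values are FPKM, fragments scaled to transcript length and to the library's mapped fragments, as far as the layout of the table shows. FPKM hold no read counts, so sequencing depth is unknown, and errors are the spread between animals. The summed FPKM of a library lay between 364109 and 465105, and between 7803 (library 79) and 10614 genes (library 39) reached 1 FPKM. Library 39 correlated least with the others (median r 0.889), and results that rest on it are given with and without it. Markers of muscle fibres were summed to between 32417 and 122363 FPKM in every library. Markers of endothelium and pericytes came to at most 251 FPKM and those of macrophages and lymphocytes to at most 447 FPKM. In bulk tissue, fewer cells of a type and less RNA per cell cannot be told apart.

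Of the measured factors that pair in AP-1, JUN had the highest median FPKM and the smallest spread on the log2 scale. The JUN transcript (chr6:153685682-153687639, plus strand, 2 exons) ranged from 37.1 FPKM in library 79 over a median of 161 to 373 FPKM in library 100. JUND had a median of 64.6 FPKM, with a lowest value of 7.65 in library 133 and a highest of 194 in library 62. FOS (chr7:98449508-98453576, plus strand, 4 exons) ranged from 2.21 FPKM in library 79 over a median of 72.2 to 480 FPKM in library 100. Its next highest value was 304 FPKM, in library 96. FOSB (chr6:51838277-51842399, plus strand, 5 exons) was the lowest of the 8, with a median of 2.85 FPKM. It was listed at 0 in library 79 and reached 27.8 FPKM in library 62. In the listed medians JUN lay above FOS and JUND, and FOSB below all of them. The levels are per listed transcript length, which was 978 bases for FOSB, 1043 for JUND, 1772 for JUN and 2748 for FOS. How completely each listed transcript covers its gene was not tested, so the order between genes is not firm.

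ATF3, a repressor and activator of the ATF family that many kinds of cell stress induce, differed most between animals. It was measured by 2 transcripts on the minus strand between chr9:130772262 and 130785599, of which one held 87.0% of the mean. Its level ranged from 0.880 FPKM in library 133 over a median of 16.2 to 278 FPKM in library 184, with the next highest value, 200 FPKM, in library 187. The SD of log2(FPKM + 1) was 1.39, which ranked 22 of the 10717 tested genes, whose median SD was 0.37. FOS had an SD of 1.13 (rank 86), EGR1 of 0.99 (rank 174), FOSB of 0.97 (rank 187), JUND of 0.91 (rank 255) and NR4A1 of 0.87 (rank 326). IER2 and JUN, with 0.63 (rank 1294) and 0.58 (rank 1704), varied less than the other 6 but still more than the median gene. FOSB depended on the added pseudocount, since with 0.1 in place of 1 its SD was 1.34. JUND varied less in the 21 re-analyzed libraries alone, where its SD was 0.47.

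The 3 sets overlapped in every gene. FOS had a median of 73.6 FPKM in the unmarked animals with IMF, 59.3 in those without and 72.2 in the re-analyzed ones. The ATF3 medians were 17.5, 10.3 and 11.8 FPKM in the same order, those of NR4A1 were 73.1, 43.9 and 92.1, and those of JUND were 63.8, 43.4 and 99.4. The medians of EGR1 (25.4, 23.4 and 22.4 FPKM) and IER2 (13.4, 13.7 and 14.6 FPKM) lay closest together.

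EGR1, which encodes a growth and stress responsive activator, ranged from 1.58 FPKM (library 79) over a median of 24.8 to 127 FPKM (library 100). Its listed transcript (chr2:140441491-140471827, plus strand, 3 exons) runs past the end of the RefSeq gene at 140445302. NR4A1, an early gene of contraction and of adrenaline in muscle, was the sum of 3 transcripts, 1 of which (chr5:17400157-17408510, plus strand, 7 exons) held 93.1% of the mean. It ranged from 13.4 FPKM (library 193) over a median of 71.7 to 374 FPKM (library 62). IER2 (chr2:65910620-65911285, minus strand, 1 exon) ranged from 3.84 FPKM (library 141) over a median of 13.7 to 66.6 FPKM (library 100). The next highest IER2 value was 37.7 FPKM, so that library 100 stood well above the others in this gene.

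**Figure D1:**
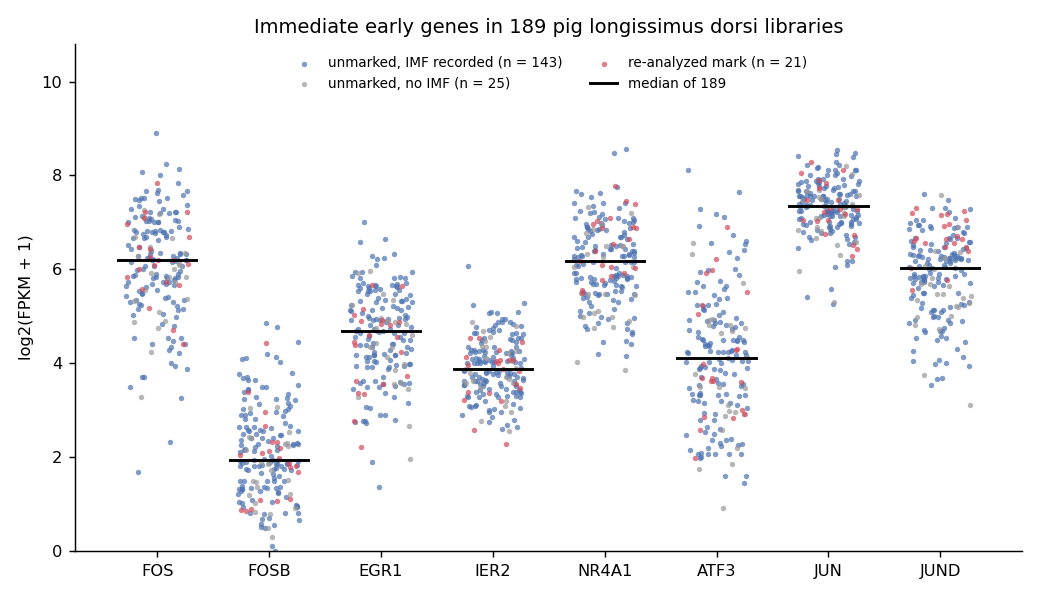
Level of each gene, as log2(FPKM + 1), in the 189 libraries, with 1 point per library coloured by set and a black bar at the median over all 189. The points of the 3 sets overlap in every gene, and ATF3 covers the widest range, from 0.880 to 278 FPKM.

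The same libraries were at the extremes of several of these genes. In library 100, FOS, JUN, EGR1 and IER2 were each the highest of all 189, and NR4A1 (358 FPKM) was the next to highest. Library 62 was highest in FOSB, JUND and NR4A1 and held 8 of the 8 genes among the highest 10. At the other end, library 79 was lowest in FOS, FOSB, JUN and EGR1, and library 133 was lowest in JUND and ATF3 and among the lowest 10 in 7 genes. In 28 libraries all 8 genes lay above their median, and in 25 none did. There were 6 libraries with 4 or more genes among the highest 10 and 8 libraries with 4 or more among the lowest 10. Some libraries broke this pattern. Library 184, the highest in ATF3 and in the heat shock score defined below, had FOSB at 2.74 and NR4A1 at 84.9 FPKM, close to their medians. Library 187, next in ATF3, had NR4A1 at 27.9 FPKM, rank 175 of 189. Library 158 had FOS at 12.1 and FOSB at 0.0750 FPKM, near the bottom, with ATF3 at 37.0 FPKM, rank 38.

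**Figure D2:**
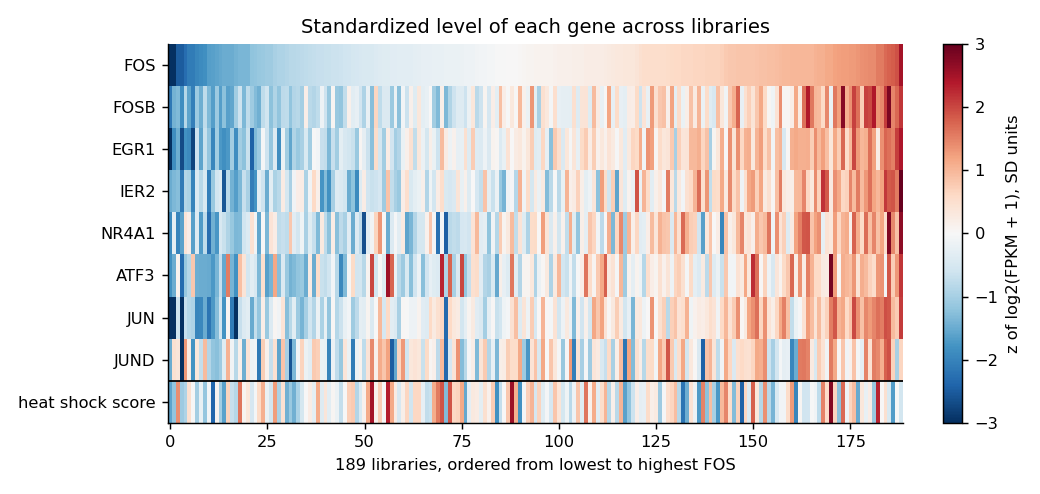
Each column is 1 of the 189 libraries, ordered from lowest to highest FOS, and the colour is the standardized log2(FPKM + 1) of the gene in SD units. FOSB, EGR1, IER2 and JUN turn from blue to red along the same order, JUND and ATF3 follow it loosely, and the heat shock score in the lowest row shows little of it.

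Whether the genes moved together was measured on log2(FPKM + 1) by Pearson's r and by Spearman's rho, after the mean of the marked and of the unmarked libraries was removed. Of the 28 pairs, 28 passed in the positive direction (permutation test, adjusted over 28 relations), by r and by rho. FOS and EGR1 were closest, with r = 0.871 and rho = 0.851, and r = 0.862 without the 2 libraries farthest in FOS (unadjusted p = 1e-05, the smallest that 100000 permutations can give). FOSB correlated with EGR1 at r = 0.837 (rho = 0.841) and with FOS at r = 0.825 (rho = 0.838). JUN correlated with FOS at r = 0.796 (rho = 0.764) and IER2 with EGR1 at r = 0.789 (rho = 0.793), each at the same smallest p. NR4A1 was closest to FOSB (r = 0.693, rho = 0.684) and ATF3 to JUN (r = 0.649, rho = 0.640). The weakest pair was FOS and JUND, with r = 0.306, rho = 0.306 and r = 0.311 without the 2 farthest libraries (permutation test, adjusted p = 3e-05).

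Within the sets, FOS and EGR1 correlated at 0.875 in the 168 unmarked and 0.838 in the 21 re-analyzed libraries. FOS and JUND correlated at 0.284 in the unmarked and 0.801 in the re-analyzed libraries. The slope of FOS on JUND was 0.37 in the unmarked and 1.42 in the re-analyzed libraries, and the difference did not pass (limma interaction term, adjusted p = 0.351). Each of the 28 pairs passed under every alternative computed, the 21 re-analyzed libraries alone included. The first principal component of the 8 genes held 65.5% of their variance and correlated with FOS at 0.915 and EGR1 at 0.905. JUND, at 0.565, and ATF3, at 0.676, followed it least. JUND stood out on the second component, with 10.5% of the variance (r = 0.726), and ATF3 on the third, with 8.36% (r = 0.678). These components are descriptions and were not tested.

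**Figure D3:**
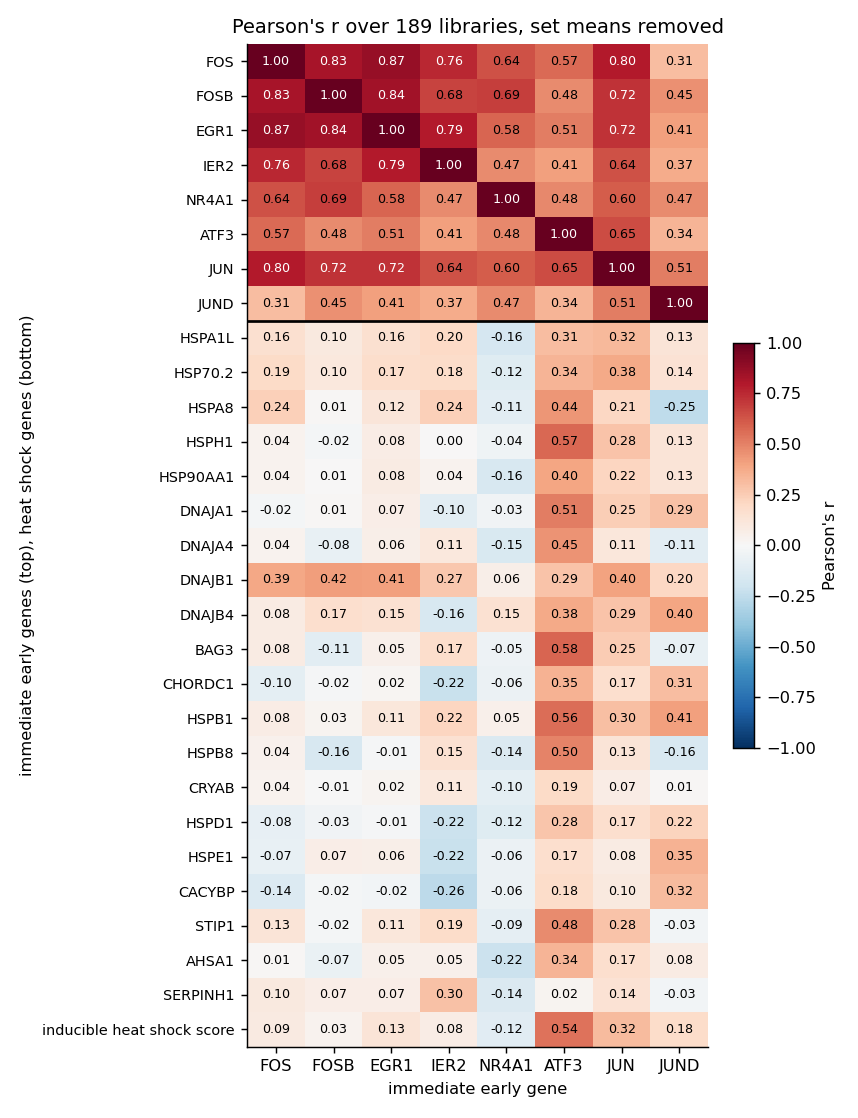
Pearson's r over 189 libraries, with set means removed, between the 8 immediate early genes (above the line) and between them and 20 inducible heat shock genes and their score (below it). The upper block is red throughout, from 0.31 to 0.87. Below the line the ATF3 and JUN columns are positive in every row, with a median r over the 20 genes of 0.36 for ATF3 and 0.21 for JUN.

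Regression of every other gene on FOS showed how far its variation reached. Of 10716 genes, 315 rose and 99 fell with FOS (limma, adjusted p under 0.05), and 2152 had an unadjusted p under 0.05. The 7 other immediate early genes all rose, against 2.94% of all genes tested that rose, 0.924% that fell and 3.86% in either direction. EGR1 led the whole table, with 0.76 log2 units per log2 unit of FOS (SE 0.0312, limma adjusted p = 4.17e-56). FOSB rose by 0.71 (SE 0.0354), ATF3 by 0.70 (SE 0.0736), NR4A1 by 0.48 (SE 0.0427), IER2 by 0.42 (SE 0.0266) and JUN by 0.41 (SE 0.0230). JUND rose by 0.23 (SE 0.0527, limma adjusted p = 0.00181), and with the first 6 digits of the sample title as a factor it did not pass (adjusted p = 0.0622, the highest of 21 alternatives, which ranged down to 2.49e-05). In the 21 re-analyzed libraries alone ATF3 (adjusted p = 0.150, limma) and NR4A1 (adjusted p = 0.127) did not pass. The total of 414 genes rested partly on single libraries, since it was 880 without library 79 and 262 without library 163. Its direction depended on scaling, with 543 higher and 548 lower after quantile normalization, 1296 higher and 1350 lower after a shift to a common median, and 520 higher and 62 lower after scaling to a common total.

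Other genes of the early wave moved with FOS. Of 43 tested genes in a list of other immediate early and early response genes, 31 rose with FOS and 0 fell, and the median slope of the list was 0.15, against 0.00 over all tested genes. BTG2, an antiproliferative early gene, rose by 0.75 (SE 0.0330), CYR61, a secreted matrix protein, by 0.57 (SE 0.0283), ZFP36, which hastens the decay of short-lived messages, by 0.50 (SE 0.0246), and DUSP1, a phosphatase that shuts off MAP kinases, by 0.48 (SE 0.0410). BTG2 itself ranged from 2.86 FPKM over a median of 29.6 to 200 FPKM. None of the 31 that rose turned its direction under the scalings tried. Turned signs of genes that did not pass are not given here. KLF10 and CSRNP1 turned in the 21 re-analyzed libraries, without passing there. Those that did not pass included NR4A3 (0.09, SE 0.0391, limma adjusted p = 0.200), a relative of NR4A1, and MCL1 (-0.0026, SE 0.119, adjusted p = 0.993), a survival protein. NR4A2, its other relative, rose by 0.07 (SE 0.0198, adjusted p = 0.0194).

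Fewer of the partners and regulators of AP-1 passed. Of 16 other AP-1 and ATF factors 2 rose with FOS, MAFF by 0.32 (SE 0.0397) and FOSL2 by 0.14 (SE 0.0326), where 2.94% of all genes rose. The median slope of that list was 0.01. Of 28 genes for the upstream MAP kinases and the SRF, ELK and CREB factors 0 passed in either direction (limma), where 3.86% of all genes did. In a list of this size 0 is near that share. Of these genes 5 had an unadjusted p under 0.05, and the median slope was -0.01. These proteins are known to be controlled by phosphorylation, which RNA levels do not measure.

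Among markers of endothelium (12 tested), fibroblasts (13), smooth muscle (5), Schwann cells (5) and blood (2) 0 passed (limma), while 2, 0, 2, 1 and 1 had an unadjusted p under 0.05. Over all tested genes 3.86% passed, so that 0 calls in each of these small lists is near that share. CD163, a macrophage receptor, was the only call among 10 macrophage and lymphocyte genes (0.16, SE 0.0468), and LIPE, the hormone-sensitive lipase, the only one among 10 fat cell genes (0.18, SE 0.0512). MYF6, a myogenic factor, was the only call among 7 satellite cell and myogenic genes (0.11, SE 0.0344). Of 9 muscle fibre genes, the slow myosin MYH7 rose by 0.22 (SE 0.0390), and the fast troponins TNNT3 and TNNC2 fell by 0.07 (SE 0.0177) and 0.06 (SE 0.0174). At an unadjusted p under 0.05 (limma), 5 of the 10 fat cell and 4 of the 9 muscle fibre genes passed. The macrophage and lymphocyte list had 1 of 10 and the satellite cell list 1 of 7, where 2152 of all 10716 genes did. The marker calls at an adjusted p under 0.05 were not firm. CD163 did not pass without library 100 (limma adjusted p = 0.0682) or library 163 (adjusted p = 0.0645), and LIPE did not without library 39 (adjusted p = 0.0550) or library 163 (adjusted p = 0.0634), while after a shift to a common median TNNT3 (adjusted p = 0.389) and TNNC2 (adjusted p = 0.314) did not pass. MYF6 did not pass without library 100 (adjusted p = 0.129), 133 (0.0609), 163 (0.108) or 184 (0.0569). Nor did it with the endothelial, macrophage and fibroblast scores (limma adjusted p = 0.269) or the mitochondrial share (0.0722) as covariates. It also failed without a term for the mark (0.0647) and without the 2 libraries farthest in FOS (0.0827). The unmarked libraries alone gave 0.0599 and the re-analyzed ones alone 0.951. MYH7 passed in all but the 21 re-analyzed libraries. FOS correlated at no more than 0.157 in size with any of 12 library measures and cell type scores, and none of these passed by r (permutation test, adjusted over 96 relations). By rank the blood marker score passed (rho = -0.198, r = -0.141, adjusted p = 0.0459 for rho). With the endothelial, macrophage and fibroblast scores as covariates, 150 genes moved with FOS, and the 7 immediate early genes were still among them.

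**Figure D4:**
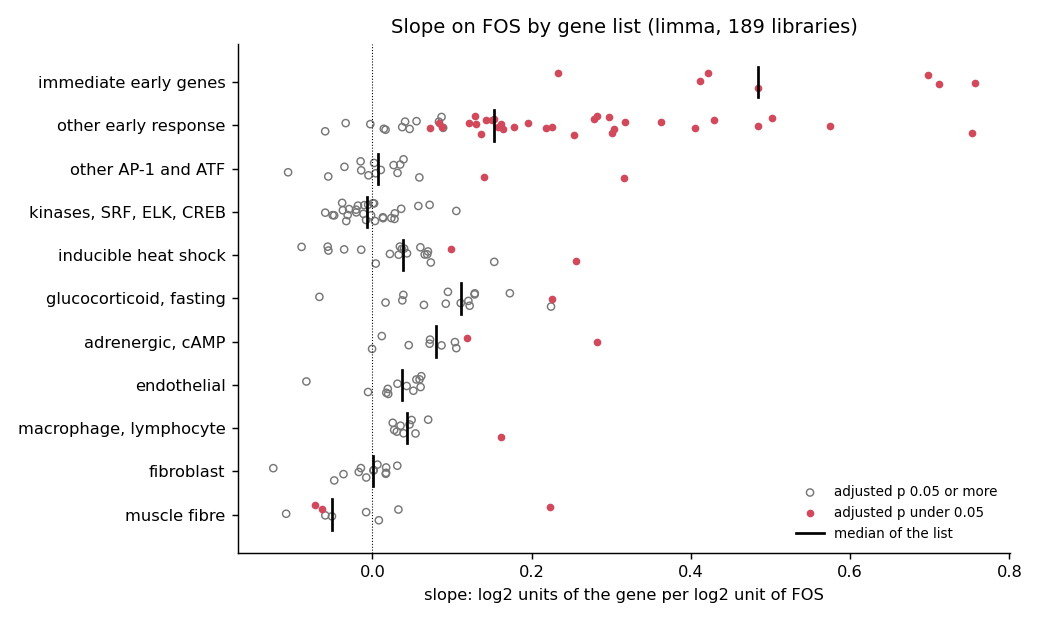
Slope of each gene on FOS in log2 units per log2 unit of FOS (limma, 189 libraries), with 1 point per gene grouped by list, filled red where the adjusted p was under 0.05, and a bar at the median of the list. The immediate early genes lie between 0.23 and 0.76, the other early response genes have a median of 0.15, and the medians of the remaining lists lie between -0.05 (muscle fibre) and 0.11 (glucocorticoid and fasting).

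By the likeness of pattern over 189 libraries (r with set means removed), the genes outside the 9 closest to FOS were BTG2 (0.86), ZFP36 and CYR61 (both 0.83), EGR2 (0.77), EGR3 (0.69), DUSP1 (0.65), OTUD1 (0.64), CTGF (0.63), KLF4 (0.62) and CXCL2 (0.61). The lowest were 3 ribosomal RNA genes, between -0.46 and -0.45, PPM1J, a protein phosphatase, at -0.36 and SLN, the sarcolipin that restrains the muscle calcium pump, at -0.33. EGR1 was closest to CYR61 (0.84), EGR2 (0.83) and EGR3 (0.76). FOSB was closest to EGR3 (0.79), CYR61 (0.77) and EGR2 (0.76), and IER2 to EGR2, CYR61 (both 0.75) and ZFP36 (0.73). JUN was closest to CYR61 (0.78), IER5 (0.77) and ZFP36 (0.76), and NR4A1 to CYR61 (0.67), BTG2 (0.66) and ZFP36 (0.64). CYR61 was thus among the closest 3 for FOS, EGR1, FOSB, IER2, JUN and NR4A1. ATF3 was closest to XIRP1 (0.73), an actin-binding repair protein of the muscle fibre, followed by BTG2 and MAFF (both 0.67). XIRP1 ranged from 11.6 FPKM over a median of 68.7 to 1629 FPKM, and its r with FOS was 0.23.

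With EGR1 as the predictor 221 genes rose and 29 fell (limma), and the 7 other immediate early genes rose again, against 2.06% of all tested that rose and 2.33% in either direction. FOS rose by 1.00 log2 units per log2 unit of EGR1 (SE 0.0412, limma adjusted p = 3.36e-56) and JUND, the least, by 0.36 (SE 0.0581, adjusted p = 8.16e-07). The split of calls was 112 higher and 30 lower after quantile normalization, 115 higher and 34 lower after a shift to a common median, and 698 higher and 32 lower after scaling to a common total. Of the 43 other early response genes 28 rose with EGR1 and 0 fell, with a median slope of 0.17 against 0.02 over all tested genes.

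JUND is known as the AP-1 member that cells also make without a stimulus. With JUND as the predictor 4334 genes rose and 1628 fell (limma), and the 7 other immediate early genes rose, by 0.27 (IER2) to 0.54 (ATF3), against 40.4% of all genes tested that rose, 15.2% that fell and 55.6% in either direction. The split turned with scaling, with 2763 higher and 3445 lower after quantile normalization, 2347 higher and 3096 lower after a shift to a common median, and 4907 higher and 1238 lower after scaling to a common total. By r, FOS ranked only 2179 among all genes on JUND and JUN, the nearest, 393. The genes closest to JUND were TMEM160 (0.85), ZNF579 (0.84), KLF2, SFT2D3 (both 0.83) and MRPL57 (0.82). JUND also correlated with library measures, namely with the share of summed FPKM held by mitochondrial genes at r = 0.328 (rho = 0.366, permutation test, adjusted p = 0.00032 over 96 relations) and with the number of genes at 1 FPKM or more at r = 0.316 (rho = 0.258, adjusted p = 0.000384). It correlated with the muscle fibre score at r = -0.354 (rho = -0.402) and with the macrophage and lymphocyte score at r = -0.282 (rho = -0.333). With the mitochondrial share as a covariate 2656 genes rose and 1521 fell with JUND, and with the endothelial, macrophage and fibroblast scores 3741 rose and 1088 fell (limma), and the 7 immediate early genes passed in both fits. The muscle fibre score and the number of genes detected were not tried as covariates.

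The relation of the immediate early genes to heat shock genes was taken over a score, the mean standardized log2 level of 20 measured inducible heat shock genes and co-chaperones. The score ranged from -1.62 (library 1) to 1.84 (library 184). ATF3 rose with it by 1.14 log2 units per unit of the score (SE 0.127, limma adjusted p = 1.63e-14) and JUN by 0.28 (SE 0.0607, adjusted p = 3.46e-05). JUND rose by 0.24 (SE 0.0926, limma adjusted p = 0.0233). These were 3 of 8, where 4577 of 10697 tested genes rose (42.8%) and 1133 fell (53.4% in either direction), so that the count is below the share of all genes. The values of the other 5 were 0.19 (SE 0.106) for EGR1, 0.16 (SE 0.123) for FOS, 0.07 (SE 0.0687) for IER2, 0.05 (SE 0.106) for FOSB and -0.15 (SE 0.0933) for NR4A1, with limma adjusted p from 0.119 to 0.723. The direction of the calls over all genes depended on scaling, with 2166 higher and 2597 lower after quantile normalization and 1831 higher and 2009 lower after a shift to a common median. ATF3 passed in each of 21 alternatives, with slopes of 1.07 to 1.25. JUN passed in all but the 21 re-analyzed libraries alone (adjusted p = 0.0703, limma). JUND did not pass under 5 of 21 alternatives, among them quantile normalization (adjusted p = 0.388), the shift to a common median (adjusted p = 0.399) and the mitochondrial share as a covariate (adjusted p = 0.0865). Its adjusted p went down to 0.00490. EGR1 passed under library total scaling (adjusted p = 0.0373) and, with FOS (adjusted p = 0.04997), with the first 6 title digits as a factor (adjusted p = 0.0344, the lowest of its 21, the highest being 0.532).

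As correlations, ATF3 and the score gave r = 0.545 and rho = 0.501 (permutation test, adjusted p = 8e-05 over 168 relations), r = 0.507 without the 2 farthest libraries, 0.537 in the unmarked and 0.609 in the re-analyzed libraries. In the 21 re-analyzed libraries alone that correlation did not pass (permutation test, adjusted p = 0.0595), and in 16 further alternatives it did. JUN gave r = 0.320 and rho = 0.290 (adjusted p = 0.000134), and 0.293 without the 2 farthest. In the 21 re-analyzed libraries alone JUN did not pass either (r = 0.557, permutation test, adjusted p = 0.103). JUND gave r = 0.183 and rho = 0.174 (permutation test, adjusted p = 0.0345). It no longer passed without library 133 (r = 0.170, adjusted p = 0.0518), library 184 (r = 0.161, adjusted p = 0.0639) or library 187 (r = 0.168, adjusted p = 0.0518). Nor did it pass after quantile normalization (r = 0.0783, adjusted p = 0.421) or a median shift (r = 0.0823, adjusted p = 0.390). The same held without the 2 farthest libraries (r = 0.159, permutation test, adjusted p = 0.0755). It also held in the unmarked libraries alone (r = 0.171, adjusted p = 0.0757) and in the re-analyzed ones alone (r = 0.362, adjusted p = 0.346). FOS gave r = 0.0926 and rho = 0.0508 (permutation test, adjusted p = 0.320) and NR4A1 r = -0.116 and rho = -0.109 (adjusted p = 0.205). With ATF3 held fixed (partial correlation), the r with the score was -0.0525 for JUN and -2.61e-05 for JUND. It was -0.312 for FOS, -0.307 for FOSB, -0.207 for EGR1, -0.193 for IER2 and -0.511 for NR4A1. With FOS held fixed instead, JUN kept r = 0.408 and JUND r = 0.163. These partial values were not tested, and whether JUN relates to the score apart from ATF3 was not tested.

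Whether the genes differed in this relation was tested for all 28 pairs by the correlation of the difference of their standardized levels with the score. ATF3 lay above each of the 7 others, by 0.225 in r over JUN (permutation test, adjusted p = 0.000582 over 28 pairs) and by 0.661 over NR4A1 (adjusted p = 3.11e-05). JUN lay above FOS (by 0.227), FOSB, EGR1, IER2 and NR4A1, and its difference from JUND, 0.137, did not pass (permutation test, adjusted p = 0.0797). NR4A1 lay below each of the 7 others, by 0.149 against FOSB (permutation test, adjusted p = 0.0154) and by 0.209 against FOS (adjusted p = 0.00147). EGR1 lay above FOSB by 0.0969 (adjusted p = 0.0327, permutation test). Among FOS, JUND, EGR1 and IER2 no pair passed, and neither did FOSB against FOS, JUND or IER2.

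**Figure D5:**
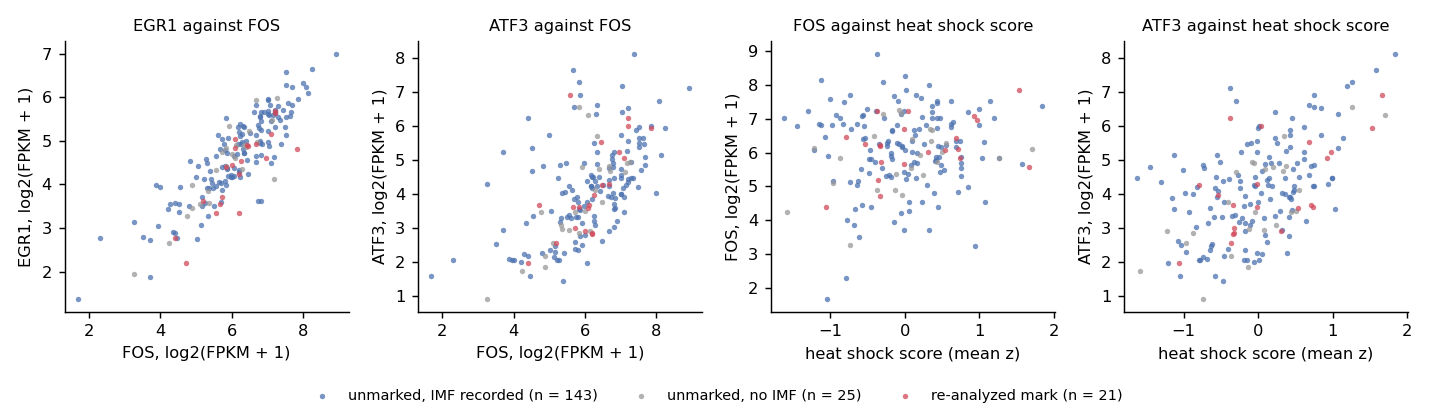
From left, EGR1 against FOS, ATF3 against FOS, FOS against the heat shock score and ATF3 against the score, each axis log2(FPKM + 1) or the score in mean SD units, with 1 point per library coloured by set. EGR1 follows FOS closely (r = 0.871), ATF3 follows FOS (r = 0.566) and the score (r = 0.545) loosely, and FOS is spread evenly along the score (r = 0.0926).

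Gene by gene, 60 of the 168 relations with the score or 1 of its 20 genes passed by r and 57 by rho. ATF3 rose with 18 of the 20 heat shock genes and JUN with 11, and neither passed in the negative direction with any. The share of all genes that passed with single heat shock genes is not given here, but 42.8% of all genes rose with the score (limma). By r with the score ATF3 ranked 225 and JUN 1806 among all tested genes, the heat shock genes included. Over these genes the median r was 0.12 and the 95th percentile 0.45. ATF3 was closest to BAG3, a co-chaperone that clears damaged muscle proteins (r = 0.578, rho = 0.507), to HSPH1, a large HSP70 relative (r = 0.574, rho = 0.533), to the small heat shock protein HSPB1 (r = 0.557, rho = 0.519) and to the HSP40 relative DNAJA1 (r = 0.511, rho = 0.456), each with adjusted p = 8e-05 (permutation test, over 168 relations). HSPB1 ranged from 268 FPKM over a median of 1193 to 10267 FPKM and BAG3 from 24.2 over 74.3 to 578 FPKM. JUN was closest to DNAJB1 (r = 0.401, rho = 0.403) and to HSP70.2 (r = 0.375, rho = 0.338). HSP70.2 belongs to a family of near-identical copies, and reads could be assigned to any of them.

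DNAJB1, the inducible HSP40 partner of HSP70, was the heat shock gene that most of the early genes shared. Its r was 0.388 with FOS, 0.415 with FOSB, 0.408 with EGR1, 0.289 with ATF3, 0.268 with IER2 and 0.204 with JUND, all passing (permutation test, adjusted p from 8e-05 to 0.0164 over 168 relations), and 0.0592 with NR4A1, which did not (adjusted p = 0.543). FOS passed with 3 of the 20 (DNAJB1, HSPA8 and HSP70.2), EGR1 with 2, FOSB with 1 and NR4A1 with 1, AHSA1, in the negative direction (r = -0.218, rho = -0.197). IER2 and JUND were mixed. IER2 was higher with 8 genes, most with SERPINH1, the collagen chaperone (r = 0.296, rho = 0.248), and lower with CACYBP (r = -0.261, rho = -0.286), HSPE1 (r = -0.223), CHORDC1 (r = -0.221) and HSPD1 (r = -0.216). JUND was higher with 8, most with HSPB1 (r = 0.408, rho = 0.404), and lower with HSPA8 (r = -0.251, rho = -0.268). The 5 negative relations of IER2 and JUND named here were positive in the 21 re-analyzed libraries alone, from 0.0830 to 0.398, without passing there.

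Of the library measures and cell type scores, IER2 correlated with the smooth muscle score (r = 0.289, rho = 0.304, permutation test, adjusted p = 0.00123 over 96 relations), the endothelial score (r = 0.257, rho = 0.189) and the macrophage and lymphocyte score (r = 0.249, rho = 0.188), of which the endothelial and macrophage scores passed by r and not by rho. JUN correlated negatively with the muscle fibre score (r = -0.311, rho = -0.293) and with the summed FPKM of the library (r = -0.314, rho = -0.290). ATF3 correlated with the muscle fibre score at -0.186 (rho = -0.169), which passed by r (adjusted p = 0.0449, permutation test) and not by rho. EGR1 passed by r and not by rho with the muscle fibre score (r = -0.231, rho = -0.165), the endothelial score (r = 0.204, rho = 0.124) and the summed FPKM (r = -0.194, rho = -0.154). FOSB passed with the summed FPKM (r = -0.219, rho = -0.197) and, by r alone, with the muscle fibre score (r = -0.242, rho = -0.145). By rho alone FOSB passed with the blood marker score (r = -0.179, rho = -0.198, permutation test, adjusted p = 0.0459 for rho). IER2 also passed with the mitochondrial share (r = -0.214, rho = -0.208), the fat cell score (r = 0.216, rho = 0.198) and, by r alone, the Schwann cell score (r = 0.190, rho = 0.154). The Schwann cell list holds CRYAB, which is also a gene of the heat shock score. By rho alone IER2 passed with the number of genes at 1 FPKM or more (rho = -0.228, permutation test, adjusted p = 0.0150 for rho). JUN passed, by r alone, with the endothelial score (r = 0.188, rho = 0.135) and the number of genes at 1 FPKM or more (r = 0.196, rho = 0.134). JUND passed with the fibroblast score as well (r = -0.214, rho = -0.238), and NR4A1 with the blood marker score (r = -0.216, rho = -0.245). With the mitochondrial share, or the endothelial, macrophage and fibroblast scores, as covariates, the 7 genes kept their calls on FOS and on EGR1, and ATF3 and JUN kept theirs on the heat shock score. The remaining scores were not tried as covariates.

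IMF showed no relation to these genes that passed. Over the 164 animals with IMF, which ranged from 0.77 to 6.84, 0 of the 8 genes passed (limma), against 0.084% of all genes tested, and 527 genes had an unadjusted p under 0.05. The slopes ran from -0.10 log2 units per unit of IMF for FOSB (SE 0.0680) over -0.06 for FOS (SE 0.0795) to 0.02 for JUN (SE 0.0395), with limma adjusted p from 0.961 to 0.996. None of the 8 genes passed at an unadjusted p under 0.05 (the smallest was 0.159, for FOSB). The 9 genes called over the whole table were 28 without library 39 and 0 in the unmarked libraries alone.

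The 21 re-analyzed animals lay at the extremes of IMF, 11 of them between 0.77 and 2.33 and 10 between 4.83 and 6.84, whereas 121 of the 143 unmarked animals lay between these ranges. The sets were therefore compared with a straight-line term for IMF. JUND was 0.83 log2 units higher in the re-analyzed libraries than in the unmarked ones (SE 0.199, limma adjusted p = 0.000414). Against only the 22 unmarked animals within the same 2 IMF ranges it was 0.74 higher (limma adjusted p = 0.00738). With the first 9 title digits as a block, where 12 codes held both sets, it was 1.16 higher (limma adjusted p = 0.00746), and over 19 alternatives the difference was 0.74 to 1.16 with adjusted p from 0.000129 to 0.00980. It ranged from 45.8 FPKM over a median of 99.4 to 156 FPKM in the former and from 10.6 over 63.8 to 194 FPKM in the latter, so that the sets overlapped and the lowest re-analyzed library lay above the lowest unmarked one. JUND was 1 of 8 called, where 18.3% of all genes were higher and 22.7% lower (41.1% in either direction). NR4A1 differed by 0.39 (SE 0.194, adjusted p = 0.0956, limma), and the other 6 by -0.32 to 0.09, with adjusted p from 0.267 to 0.944. The mark moved with markers of other cells too, since 12 of 13 fibroblast, 9 of 10 fat cell and 7 of 12 endothelial markers were lower in the re-analyzed libraries. With the endothelial, macrophage and fibroblast scores as covariates the JUND difference was 0.76 (limma adjusted p = 0.00980). Fat cell markers were not tried as a covariate.

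Animals that share the first 9 digits of their title, a code that is not explained, were compared over 146 animals in 48 codes. The share of variance between codes was 0.206 for FOSB, 0.200 for NR4A1 and 0.169 for FOS, and at most 0.129 for the other 5. Of the 8 genes 0 passed (moderated F test in limma, adjusted p from 0.103 for FOSB to 0.694 for ATF3), against 1.82% of all genes. At an unadjusted p under 0.05, FOSB, NR4A1, FOS and JUND did, where 2014 of all 10717 genes did. In the 2 largest codes, of 7 animals each, FOS ranged from 69.0 over a median of 148 to 480 FPKM and from 8.51 over 59.0 to 155 FPKM, so that the codes overlapped. By the first 6 digits (172 animals, 34 groups) 0 of 8 passed as well (limma, adjusted p from 0.292 to 0.743), against 0.205% of all genes, and 6 had an unadjusted p under 0.05, as had 1284 of all genes. The total of 22 genes called there was 4 without library 39. For the first 9 within the first 6 digits 0 of 8 passed (limma), against 0.0653% of all genes, and FOSB and NR4A1 had an unadjusted p under 0.05.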

How the data were processed

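Polyadenylated RNA of 189 muscle samples was sequenced as paired-end reads, per the labels' protocols. HISAT2 2.0.5, StringTie 1.3.3 and the build Sscrofa11.1 are named in the submitters' processing notes. Which annotation release and transcript filter were applied, or whether values were normalized again, is not given in the sources used here. For each transcript and sample the authors deposited 1 value, whose unit was inferred as FPKM, since the deposited header names none. FPKM do not keep read counts, so depth and counting error are unknown.

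FPKM of the 18114 listed transcripts were summed over 12651 genes. Tests ran on log2(FPKM + 1), which understates changes of low genes, where the mean reached 0.5 FPKM. They used the moderated linear models of limma (version 3.58.1, under R 4.3.3; intensity trend, 2-sided, Benjamini-Hochberg over all tested genes, called under 0.05). The re-analyzed mark was a covariate. Correlations used 100000 permutations within sets (20000 for alternatives). On simulated data with the real samples, 100% of slopes of 0.5 gene SD per predictor SD were recovered for FOS and 48% of those of 0.25.

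The genes, the gene lists and the tests were chosen with earlier results of these data known. Named were all members, the nearest non-members by r and the largest slopes that passed per list. NR4A2, NR4A3, MCL1, HSF1 and the single heat shock genes were named after their values were seen. Alternatives were another pseudocount, filters, scalings, covariates, subsets and left-out samples. Libraries 62, 79, 100, 133, 163, 184 and 187 were left out singly after their values were seen. No library was pooled or dropped from a main result, and no sequence was read.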

Additional observations from a re-analysis of the deposited data

How the results depend on the processing

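The direction of every slope and difference of the 8 genes that passed was kept in all alternatives tried, and the 28 correlations between them passed in each. Calls over all genes moved more. With a mean of at least 5 FPKM they were 253 for FOS, 135 for EGR1, 2861 for JUND, 2735 for the heat shock score, 5 for IMF, 2253 for the mark and 1 for the first 6 title digits. Quantile normalization gave 1091 for FOS, 142 for EGR1, 109, 7 and 3 for the first 9, first 6 and first 9 within first 6 digits, and a median shift 2646, 149, 110, 9 and 2. Library total scaling gave 730 for EGR1 and 106 for the first 9 digits. A pseudocount of 0.1 gave 19 for IMF, 6 for the first 6 digits and 17 for the first 9 within them, and no filter gave 60 for the first 6 digits. In the unmarked samples alone the counts were 162 for EGR1, 0 for IMF (limma; 527 at an unadjusted p under 0.05 in all 164 animals), 59 for the first 9 digits and 1 within the first 6. In the 21 re-analyzed samples alone they were 10 for FOS, 3 for EGR1 (2 of 7 immediate early genes), 23 for JUND (3 of 7), 530 for the score (1 of 8) and 6 relations with heat shock genes. The first 6 digits as a factor gave 178 for FOS, 84 for EGR1, 0 for IMF and 5 of 8 immediate early genes for the score. Cell type scores as covariates gave 150 for FOS and 125 for EGR1. Without the 2 samples farthest in FOS 744 genes were called, and without a term for the mark 122 for the first 6 digits. Leaving out single libraries gave 262 to 880 for FOS, 9 to 28 for IMF and 4 to 31 for the first 6 digits. The fewer genes or samples are part of some alternatives, and otherwise the cause was not tested. Among the named relations that passed in the main result or in an alternative, some signs turned. On FOS these were KLF10 (-0.10), CSRNP1 (-0.039), CD163 (-0.028), MYH7 (-0.071) and TNNC2 (0.037), all in the re-analyzed samples alone. There JUND with HSPA8 (0.398) and IER2 with CHORDC1 (0.0830), HSPD1 (0.219), HSPE1 (0.329) and CACYBP (0.227) turned as well. The factor HSF4 turned on the score under a median shift (-0.24, from 0.01). Some slopes of the 8 genes that never passed turned too. Examples over the alternatives are FOSB (-0.040 to 0.126) and NR4A1 (-0.21 to 0.028) on the score, JUND on IMF (-0.020 to 0.068) and ATF3 for the mark (-0.19 to 0.19). For the mark, blocks by the first 6 and the first 9 title digits gave 1560 and 1114 genes, cell type scores as covariates 1740 and animals in the IMF range of the re-analyzed ones 2339, all added after seeing the data. No paired analysis was possible because each library has its own replicate number and the groups share none, so that only title codes could serve as blocks. The unknown depth leaves the precision of low values, such as FOSB, undetermined.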

Other observations

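Of 15 tested genes known to respond to glucocorticoids or fasting, 10 rose and 1 fell with the score (limma), where 42.8% of all genes rose, and the median slope was 0.29 against 0.06 over all genes. FKBP5, the co-chaperone of the glucocorticoid receptor, rose by 0.87 per unit of the score (SE 0.0889), PDK4, which restrains pyruvate use, by 0.59 (SE 0.215, limma adjusted p = 0.0150, and 0.188 after quantile normalization and 0.481 after a median shift, where it did not pass), and ZBTB16 by 0.55 (SE 0.0820). On FOS 1 of the 15 passed, CEBPD, with 0.23 (SE 0.0638, limma adjusted p = 0.0235), where 2.94% of all genes rose. CEBPD is also in the list of other early response genes, so this call is counted in both lists. The median slope of the list on FOS was 0.11 against 0.00 over all genes, and 7 of the 15 had an unadjusted p under 0.05. Whether the lists differ between the 2 predictors was not tested.

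Of 10 genes of the adrenaline and cAMP response, 2 rose with FOS, SIK1 by 0.28 (SE 0.0339) and RGS2 by 0.12 (SE 0.0206), and 8 rose with the score, against 2.94% and 42.8% of all genes. SIK1 is also in the list of other early response genes. Of 16 clock genes 1, CIART, rose with FOS (0.13, SE 0.0232), while 3 rose and 8 fell with the score, with DBP at -0.90 (SE 0.124) and TEF at -0.52 (SE 0.0817), where 10.6% of all genes fell. Of the heat shock factors, HSF2 rose with the score by 0.51 (SE 0.0406), and HSF1 (0.03, SE 0.0397) did not pass (limma). Over all genes these directions depend on scaling, and none of the genes named here as rising or falling turned under the scalings tried.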
